A study of Bos taurus with 138 samples.

Results

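The comparison described here set the mRNAs that sedimented with polysomes in bovine morulae against the mRNAs of whole morulae. It rests on 9 of the 138 libraries of the series. The members were chosen by their labels alone: fractions F8, F9 and F10 of gradient A and of gradient B, summed within each gradient to give 2 polysome pools, and the 3 morula transcriptomes A, B and C. The study separated lysates of GV and MII oocytes and of 2-cell, 8-cell, morula and blastocyst embryos on sucrose gradients into 10 fractions, with 2 gradients and 3 transcriptomes at each of 6 stages. All morulae were produced in vitro from oocytes of slaughterhouse ovaries and semen of a Holstein bull, and only embryos of the best morphological grade were kept. All were treated with cycloheximide, which holds ribosomes on mRNA, and were freed of the zona pellucida by protease. Each library came from many pooled embryos, so a value is an average over blastomeres, and fewer cells of a type and less RNA per cell cannot be told apart. The gradients were loaded with lysate cleared by centrifugation whereas the transcriptomes came from whole embryos, so any loss on clearing and a difference in polysome occupancy cannot be told apart. The labels describe the gradients and the transcriptomes as biological replicates, and p-values measure only the spread between these samples.

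An mRNA read by several ribosomes at once is heavy and travels far into a sucrose gradient, whereas an mRNA with a single ribosome (a monosome) or none stays near the top. The ratio of polysome level to transcriptome level is therefore widely used as a measure of how strongly an mRNA is engaged in translation. The morula is the stage at which blastomeres compact, polarize and join through cell junctions. Cell position is then read by the Hippo pathway, whose kinases keep the coactivator YAP1 out of the nucleus of inner cells, while TEAD4 with YAP1 switches on trophectoderm genes such as CDX2 in outer cells.

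The 6 polysome fraction libraries held 8335856 to 13952577 estimated reads, the 2 pools 28023793 (A) and 39380638 (B), and the transcriptomes 8818251 to 10368030. All values below are CPM (counts scaled to a common library size by the TMM method) unless another scale is named, and they are not corrected for gene length, so levels are not compared between genes. The transcriptomes were close to one another (Pearson's r of log2(CPM + 1) across 14612 genes, which are not independent replicates, 0.982 to 0.986). The 2 pools were farther apart (r = 0.868), and pool A lacked any count for 3514 of these genes and pool B for 2248. Values from each pool alone are therefore given beside each gene group. Of 12 listed markers of morula and trophectoderm, 11 were in the table, and their summed level was 5656 CPM in pool A, 7530 CPM in pool B and 1207 to 1510 CPM in the transcriptomes. Markers of cumulus and granulosa cells summed to 44.8 to 106 CPM over the 5 samples, with PTX3 and INHA at 0, and sperm markers to 10.0 to 38.0 CPM, with ODF1 at 0. Oocyte markers varied most, from 45.8 CPM in transcriptome C to 704 CPM in transcriptome A, with 138 and 663 CPM in the pools. Blood markers summed to 579 CPM in pool A, 213 CPM in pool B and 136 to 169 CPM in the transcriptomes, mostly through the hemoglobin gene HBA, with CD74 at 0. The part of these RNAs in the results was not tested.

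In the morula, 3783 of the 14612 genes tested (25.9%) were higher in the polysomes than in the transcriptome and 3581 (24.5%) were lower, 50.4% in all, by edgeR's quasi-likelihood test at a Benjamini-Hochberg adjusted p below 0.05 and a fold above 2. The pools lay above all 3 transcriptomes for 4133 genes (28.3%) and below them for 4906 (33.6%). Calls were also counted by the mean CPM over the 2 pools and 3 transcriptomes together. Among the 144 genes with a mean of at least 1000 CPM, 47.2% were higher and 20.8% were lower. Below 1 CPM 5.41% were higher and 23.6% were lower. A gene can enter a class through the pools that are compared, so these shares do not show how calls depend on expression level. Dropping pool A, which leaves pool B as the lone sample with a spread assumed equal to that of the other groups, kept 84.0% of the higher calls and 69.8% of the lower ones. Dropping pool B kept 74.3% and 73.0%, and 61 higher calls then became lower ones.

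The largest differences were in genes nearly silent in 1 of the 2 groups. PRSS22, a serine protease, had 1.35 CPM in pool A and 38.7 CPM in pool B and no count in any transcriptome, which puts it at least 69.0-fold higher in the polysomes when 3 counts per library are taken as the limit of a count of 0. ARHGAP33, a regulator of small GTPases, had 7.76 and 12.9 CPM in the pools and none in the transcriptomes, at least 35.5-fold higher. TET3, the dioxygenase that oxidizes 5-methylcytosine after fertilization, had 6.84 CPM in pool A, 84.6 CPM in pool B, 0.653 CPM in transcriptome A and 0 in the others. RNF26, a ubiquitin ligase of the endoplasmic reticulum, had 25.4 and 126 CPM in the pools and 0.653, 0.447 and 0.862 CPM in the transcriptomes, a log2 fold change of 6.85 (SE 0.86, adjusted p = 6.8e-07). In each of these genes both pools lay above all transcriptomes, but in PRSS22, TET3 and RNF26 pool B was several-fold above pool A. SLC16A3, a lactate exporter also among the 12 largest, lost its call without pool B (0.434 and 20.3 CPM in the pools).

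All 12 genes with the largest differences in the other direction had no count in either pool. WNK3, a kinase of ion transport, had 14.2, 23.2 and 19.2 CPM in the transcriptomes and was at least 163-fold lower in the polysomes. POLI, a translesion DNA polymerase, had 8.77, 10.1 and 14.2 CPM and was at least 95.6-fold lower. FABP7, a fatty acid binding protein, had 12.51, 8.404 and 10.77 CPM and was at least 91.5-fold lower. For scale, 3 counts correspond to 0.145 CPM in pool A and 0.0863 CPM in pool B. Also among them were CRISP2, a sperm protein gene that is also on the sperm marker list, ZNF300, ZNF165 and ZNF791 of the zinc finger family, and TCAM1, FAM200B, HYKK and CCDC150.

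**Figure D1:**
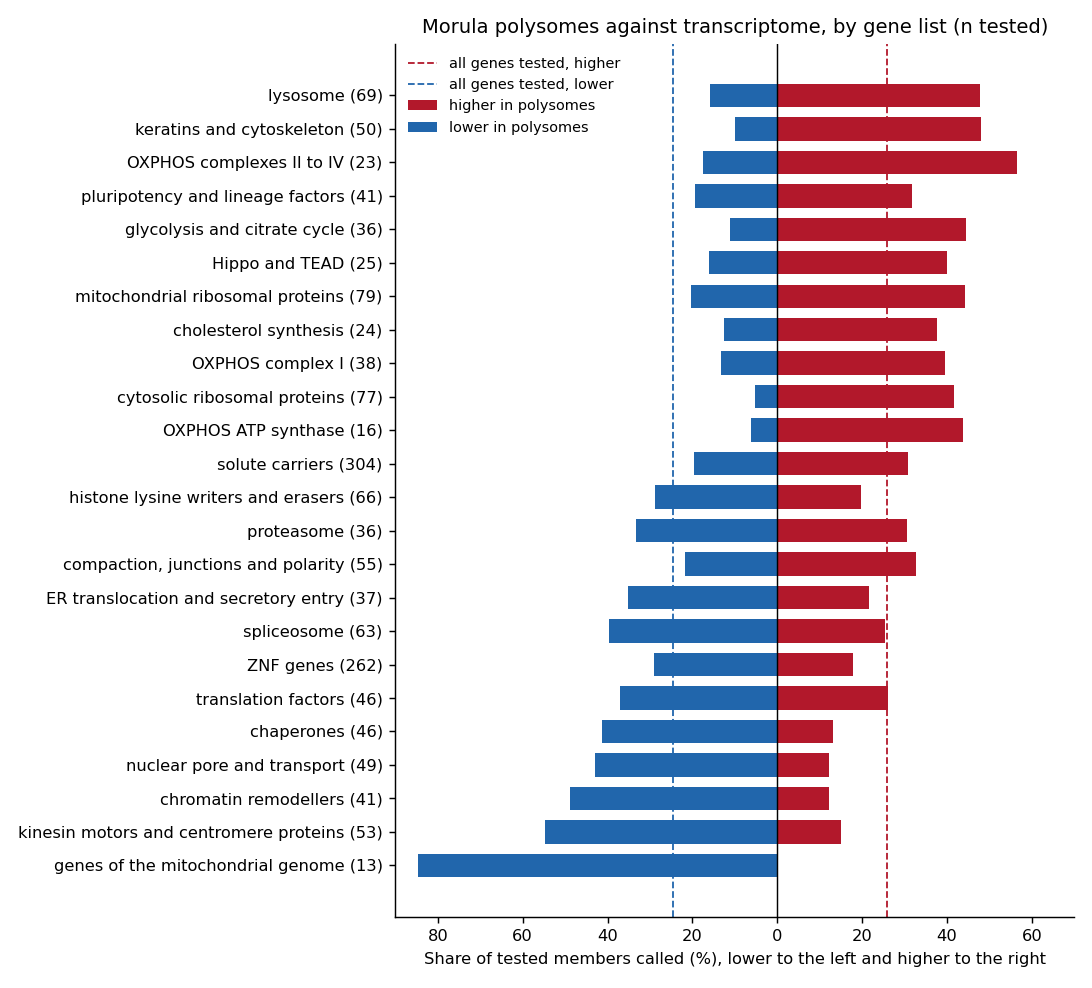
For each of 24 gene lists, the share of tested members (in percent, number tested in brackets) called higher in morula polysomes (red, to the right) or lower (blue, to the left) than in the transcriptome, ordered by the median log2 fold change. Dashed lines mark the shares over all 14612 genes, 25.9% higher and 24.5% lower. Of keratins and cytoskeleton, 24 of 50 members were higher and 5 lower, and of genes of the mitochondrial genome none was higher and 11 of 13 were lower.

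Cytoskeletal mRNAs were enriched in the polysomes of both gradients. Of the 50 tested genes of keratins and cytoskeleton, 24 rose and 5 fell, with a median log2 fold change of 1.35 against 0.00 over all genes, and the median was 1.10 from pool A alone and 1.02 from pool B alone. KRT8, the type II keratin of simple epithelia, had 910 and 3104 CPM in the pools and 109, 143 and 25.6 CPM in the transcriptomes (log2 fold change 4.44, SE 0.53, adjusted p = 3.8e-07). Its partner KRT18 had 969 and 1602 CPM in the pools and 88.1, 129 and 26.7 CPM in the transcriptomes (log2 fold change 3.98, SE 0.63, adjusted p = 2.5e-05). For both keratins the lower pool was several-fold above the highest transcriptome, and transcriptome C was the lowest sample. Beta-actin (ACTB) had 17498 and 17223 CPM in the pools and 2639 to 2847 CPM in the transcriptomes (log2 fold change 2.67, SE 0.32). ACTB and the following 3 genes were picked after their values were seen: TAGLN2, an actin-bundling protein, differed by 4.32 on the log2 scale, ARPC1B, a subunit of the actin-nucleating Arp2/3 complex, by 4.28, and TUBA1C, an alpha-tubulin, by 3.08. CAPZA2, which caps actin filaments, fell, with 41.0 and 92.2 CPM in the pools and 198 to 285 CPM in the transcriptomes (log2 fold change -1.78). MYH10, a nonmuscle myosin, and KRT10 were also lower, but MYH10 was not called without pool A or without transcriptome A or B, nor KRT10 without pool B or transcriptome C. VIL1, the actin-bundling protein of microvilli with the largest fold of the list, was higher through pool A alone and stood at -5.14 on the log2 scale without it.

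Enzymes of glycolysis and the citrate cycle differed within the pathway. Of 36 tested members, 16 rose and 4 fell (median log2 fold change 0.94; 0.52 from pool A alone and 1.33 from pool B alone). The largest increases were in glycolytic enzymes. PFKL, a phosphofructokinase that commits glucose to glycolysis, had 23.7 and 163 CPM in the pools and 2.26 to 4.65 CPM in the transcriptomes (log2 fold change 4.75). TPI1, the triosephosphate isomerase, had 164 and 69.4 CPM in the pools and 2.24, 10.3 and 4.96 CPM in the transcriptomes (log2 fold change 4.32, SE 0.52, adjusted p = 4.5e-07). PKM, the pyruvate kinase of the last step, had 365 and 1243 CPM in the pools and 57.4, 79.2 and 47.6 CPM in the transcriptomes (log2 fold change 3.71, SE 0.47). In all 3 the groups did not overlap, though the gradients disagreed on which pool was higher. The named members that fell belong to the mitochondrial matrix: DLD, the shared dehydrogenase subunit of the pyruvate and 2-oxoglutarate complexes (11.7 and 73.5 CPM against 415, 529 and 530 CPM, log2 fold change -3.53), SUCLA2, a subunit of succinyl-CoA synthetase (log2 fold change -1.61), and IDH3A, a subunit of isocitrate dehydrogenase (log2 fold change -1.52).

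**Figure D2:**
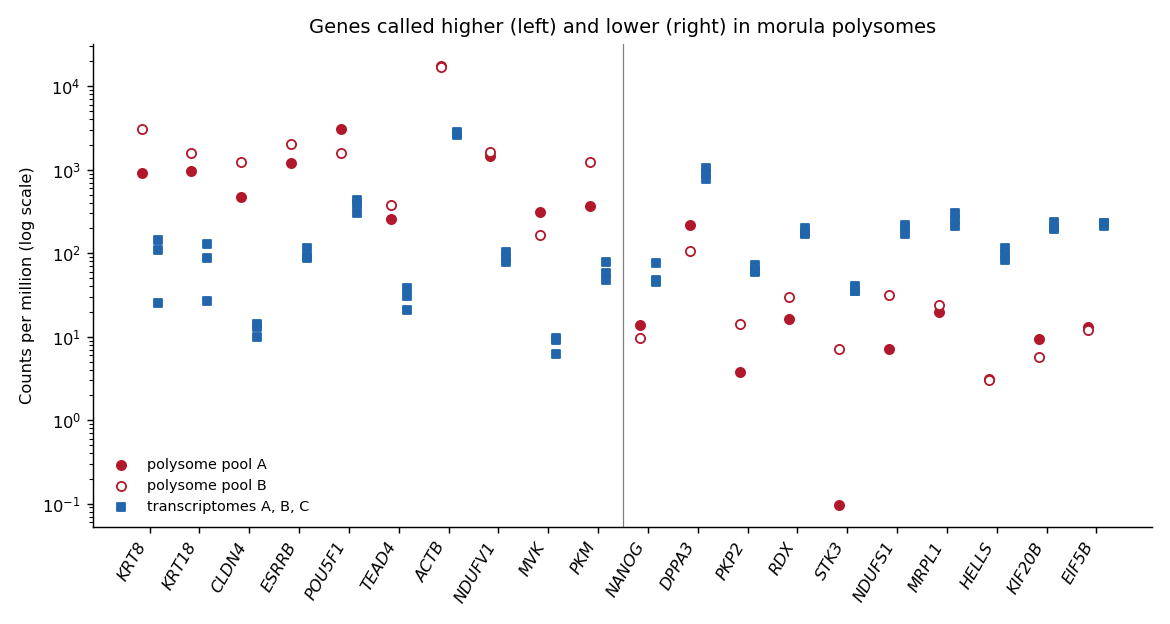
CPM after TMM scaling (log axis) of 20 genes in the 2 morula polysome pools (red circles, filled for gradient A and open for gradient B) and the 3 morula transcriptomes (blue squares), with the 10 genes on the left called higher in polysomes and the 10 on the right called lower. In every gene shown both pools lie beyond all 3 transcriptomes, and for KRT8 and KRT18 transcriptome C is the lowest point.

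Factors of pluripotency and of the first lineages included members in both directions. Of 41 tested, 13 rose (31.7%, against 25.9% of all genes) and 8 fell (19.5%, against 24.5%). The median log2 fold change was 1.03, with 0.25 from pool A alone and 0.85 from pool B alone. POU5F1, the core pluripotency factor, had 3060 and 1584 CPM in the pools and 431, 389 and 301 CPM in the transcriptomes (log2 fold change 2.63, SE 0.36, adjusted p = 2.6e-06). ESRRB, an orphan nuclear receptor of the pluripotency network, had 1220 and 2029 CPM in the pools and 90.9, 114 and 86.8 CPM in the transcriptomes (log2 fold change 4.06, SE 0.76, adjusted p = 1.1e-04). SALL4, a zinc finger partner of POU5F1, was nearly equal in the pools at 293 and 281 CPM against 42.2 to 58.1 CPM (log2 fold change 2.59). For all 3 the pools lay well above the transcriptomes, which differed little from each other. GATA6, which marks primitive endoderm, was also higher (log2 fold change 2.99), as were the HMG factor SOX15 (3.16) and ID1, a target of BMP signaling (3.098). CDX2, which specifies trophectoderm, had 8.39 and 38.7 CPM in the pools and 4.01, 3.84 and 1.19 CPM in the transcriptomes (log2 fold change 2.96, SE 0.66, adjusted p = 6.5e-04), but was not called from pool A alone (1.46). ELF3, an epithelial ETS factor, had 3.33 and 29.1 CPM against 0.467 to 0.646 CPM (log2 fold change 4.8). STAT3, the signal transducer of LIF, was higher by 1.42 on the log2 scale and by 0.77, not called, without pool B.

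Among those lower in the polysomes was DPPA3, a maternal factor that protects DNA methylation, with 217 and 107 CPM in the pools and 784, 913 and 1035 CPM in the transcriptomes (log2 fold change -2.49, SE 0.39, adjusted p = 1.3e-05). PDGFRA, a receptor of primitive endoderm, had 13.3 and 21.3 CPM against 84.8 to 95.0 CPM (log2 fold change -2.36, SE 0.45). In both genes the pools lay several-fold below the lowest transcriptome. NANOG, the pluripotency factor of the inner cell mass, had 13.7 and 9.69 CPM in the pools and 47.3, 45.2 and 76.0 CPM in the transcriptomes (log2 fold change -2.26, SE 0.86, adjusted p = 0.034), and this call was lost without pool A, pool B or transcriptome C (-2.56, -2.04 and -1.999). DPPA4, a chromatin-associated pluripotency marker, fell by 1.61 on the log2 scale and was not called without pool A. TFAP2C, an early trophectoderm regulator, differed by -0.05 on the log2 scale (157 and 185 CPM against 165, 176 and 188 CPM, adjusted p = 0.98). GATA3, which acts beside CDX2, had 5.64 and 31.5 CPM in the pools and 7.11 to 11.6 CPM in the transcriptomes and was not called (log2 fold change 1.03, SE 0.50, adjusted p = 0.085), though it was without pool A (1.76).

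In the Hippo pathway, members of several roles rose, some TEAD transcription factors and coactivators among them. Of 25 tested genes, 10 rose and 4 fell (median log2 fold change 0.92; 0.34 from pool A alone and 0.52 from pool B alone). TEAD4 had 254 and 377 CPM in the pools and 38.6, 31.0 and 20.7 CPM in the transcriptomes (log2 fold change 3.39, SE 0.84, adjusted p = 0.0024). TEAD3 had 21.4 and 22.0 CPM against 4.2, 2.06 and 1.29 CPM (log2 fold change 3.102), and WWTR1, the paralog of YAP1, 174 and 252 CPM against 47.1 to 58.7 CPM (log2 fold change 2.04). The pools were above every transcriptome in these 3 genes. VGLL4, which competes with YAP1 for TEAD factors, was higher as well, at 46.6 and 54.9 CPM against 1.83 to 4.01 CPM (log2 fold change 4.06, SE 0.42). YAP1 itself had 28.5 CPM in pool A and 6.61 CPM in pool B against 4.38 to 5.06 CPM (log2 fold change 1.93, adjusted p = 0.037), a call lost on leaving out any of pool A (0.50) and transcriptomes A, B and C (1.89 to 1.99). TEAD2 was higher through pool A alone (-0.83 on the log2 scale without it), and VGLL1, a TEAD cofactor of the trophectoderm, lost its call without pool B (0.34) or transcriptome C (2.84). TEAD1 was not called. It had 0 to 4.17 CPM in F8 to F10 of the gradients and 6.56 to 10.3 CPM in the transcriptomes (TMM over all morula libraries).

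Members upstream of YAP1 were called in both directions. NF2, the upstream activator of the pathway known as merlin, rose, with 54.8 and 46.4 CPM in the pools and 12.7 to 24.1 CPM in the transcriptomes (log2 fold change 1.53, SE 0.47), a call lost under library totals (1.12). WWC1, the upstream regulator KIBRA, was called higher with 80.05 and 4.72 CPM in the pools against 4.42 to 8.85 CPM (log2 fold change 2.76), a call lost without any one transcriptome (2.55 to 3.09) and at -0.43 without pool A. CCN1, a target gene of YAP1, was higher too (log2 fold change 2.16, adjusted p = 0.049), a call lost without any one of the 5 libraries (1.81 to 2.42). The 4 members that fell were upstream ones. STK3, the MST2 kinase, had 0.0964 and 7.07 CPM in the pools and 35.4, 35.4 and 40.1 CPM in the transcriptomes (log2 fold change -3.34, SE 0.95, adjusted p = 0.0055). SAV1, its scaffold, had 2.75 and 0.891 CPM against 18.7 to 21.4 CPM (log2 fold change -3.49), a call lost without pool B. TAOK1, which activates the MST kinases, had 2.60 and 5.64 CPM against 22.4 to 28.9 CPM (log2 fold change -2.67), and MOB1B, the cofactor of LATS kinases, 8.10 and 4.03 CPM against 20.04 to 21.7 CPM (log2 fold change -1.78, lost without pool B). The pools lay below all transcriptomes in each of the 4. The kinases that phosphorylate YAP1 were not called: LATS1 had 31.5 and 8.48 CPM in the pools and 20.2 to 24.2 CPM in the transcriptomes, and LATS2 1.83 and 13.8 CPM against 4.02 to 7.22 CPM (-1.69 on the log2 scale, a lower call, without pool B).

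Genes of compaction, junctions and polarity were called at shares near those of all genes. Of 55 tested, 18 rose (32.7%, against 25.9% of all genes) and 12 fell (21.8%, against 24.5%), with a median of 0.00, which was -0.73 from pool A alone, 0.21 from pool B alone and -0.29 under library totals in place of TMM. Those that rose included claudins and desmosomal plaque proteins. CLDN4, a claudin of epithelial tight junctions, had 468 and 1230 CPM in the pools and 14.4, 9.92 and 12.9 CPM in the transcriptomes (log2 fold change 6.10, SE 0.77, adjusted p = 7.5e-07). CLDN6, another early embryonic claudin, had 3383 and 14789 CPM against 806 to 898 CPM (log2 fold change 3.40). PKP3, a desmosomal plaque protein, had 49.8 and 46.5 CPM against 0.653, 0.894 and 0 CPM (log2 fold change 6.50, SE 1.15). Both pools exceeded all transcriptomes in these genes, and for the claudins pool B was the higher. Some polarity genes were higher as well, with the PAR complex members PARD6A (42.6 and 24.1 CPM against 0.536 to 1.4 CPM, log2 fold change 5.22) and PRKCZ (140 and 179 CPM against 18.5 to 24.6 CPM, log2 fold change 2.93), and CRB3, an apical determinant (60.1 and 46.1 CPM against 2.05 to 3.55 CPM, log2 fold change 4.23). The water channel AQP3 of the blastocoel (log2 fold change 2.57) and plakoglobin, JUP (3.62), were higher too.

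Other junction genes went the opposite way. RDX, which links the cell membrane to actin, had 16.3 and 29.99 CPM in the pools and 175, 170 and 201 CPM in the transcriptomes (log2 fold change -2.97, SE 0.39, adjusted p = 1.5e-06). PKP2, a plaque protein related to PKP3, had 3.81 and 14.1 CPM against 58.8, 72.1 and 61.8 CPM (log2 fold change -2.84, SE 0.68, adjusted p = 0.0013). Neither gene had a pool within the range of the transcriptomes. The desmocollins DSC2 and DSC3 and the claudin CLDN1 had no count in the pools and were at least 23.3-fold, 46.5-fold and 8.52-fold lower. CLDN1 rested mostly on transcriptome C, with 2.86 CPM there and 0.21 and 0.20 CPM in A and B (TMM over all morula libraries). Among polarity genes, PRKCI was called lower, a call lost without pool A (-0.88). On the same scale PARD3 had 11.9 to 63.4 CPM in F8 to F10 of the gradients and 64.4 to 83.0 CPM in the transcriptomes. E-cadherin (CDH1), the adhesion molecule of compaction, had 261 and 581 CPM in the pools and 547, 450 and 491 CPM in the transcriptomes and was not called (log2 fold change -0.24, SE 0.38, adjusted p = 0.62). Its partner beta-catenin (CTNNB1) had 41.8 and 91.2 CPM against 75.2, 88.6 and 138 CPM (log2 fold change -0.60, adjusted p = 0.21) and was called lower from pool A alone (-1.27). For both adhesion genes the groups overlapped.

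Nuclear genes of the respiratory chain were higher on balance, and this rested on gradient A. Of 38 complex I genes, 15 rose and 5 fell (median log2 fold change 0.73), of 23 genes of complexes II to IV, 13 rose and 4 fell (median 1.32), and of 16 ATP synthase genes, 7 rose and 1 fell (median 0.65). From pool A alone the medians were 1.12, 1.61 and 1.16, and from pool B alone -0.07, 0.36 and -0.42, with 11 complex I genes higher and 13 lower in pool B. Several subunits were high in both gradients. NDUFV1, the NADH-binding subunit of complex I, had 1457 and 1628 CPM in the pools and 104, 86.9 and 78.8 CPM in the transcriptomes (log2 fold change 4.10, SE 0.29, adjusted p = 4.9e-10). The iron-sulfur subunits NDUFS7 (1686 and 1737 CPM against 124 to 169 CPM) and NDUFS8 (2306 and 1998 CPM against 161 to 209 CPM) differed by 3.61 and 3.60 on the log2 scale. In these 3 genes the 2 pools were close to each other and many-fold above every transcriptome. NDUFS1, the largest iron-sulfur subunit of the same complex, was in contrast low in both gradients, with 7.08 and 32.0 CPM in the pools and 196, 170 and 216 CPM in the transcriptomes (log2 fold change -3.31, SE 0.61, adjusted p = 9.7e-05).

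The same opposition of subunits was seen in the other complexes. In complex III, UQCRC1 (1900 and 2304 CPM against 163 to 254 CPM, log2 fold change 3.37, SE 0.34) and cytochrome c1, CYC1 (log2 fold change 2.64), rose, whereas UQCRC2 fell (139 and 226 CPM against 450 to 589 CPM, log2 fold change -1.54, SE 0.28). In complex II, SDHA, the flavoprotein subunit, rose (log2 fold change 2.49). In ATP synthase, ATP5F1D of the central stalk rose (2357 and 1630 CPM against 127 to 225 CPM, log2 fold change 3.54) and ATP5PB of the peripheral stalk fell (319 and 236 CPM against 867 to 941 CPM, log2 fold change -1.70). In each of these genes the 2 pools lay on the same side of all transcriptomes. The lower calls of NDUFB3, UQCRB and CYCS were lost without pool B.

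The 13 protein-coding genes of the mitochondrial genome were the list with the lowest median. None rose and 11 fell (median log2 fold change -2.05; -1.48 from pool A alone and -3.08 from pool B alone). Their summed level was 23960 CPM in pool A, 6868 CPM in pool B and 50830 to 59770 CPM in the transcriptomes. ND2, a complex I subunit, had 847 and 399 CPM in the pools and 4958, 5655 and 6692 CPM in the transcriptomes (log2 fold change -3.21, SE 0.45, adjusted p = 3.2e-06). ATP6 of ATP synthase had 2052 and 473 CPM against 7510 to 9420 CPM (log2 fold change -2.73, SE 0.55). For both genes pool B was the lowest sample and pool A lay between it and the transcriptomes. COX1 of complex IV, named after its values were seen, had 5361 and 1441 CPM in the pools and 4376 to 8865 CPM in the transcriptomes, with groups that overlapped, and was not called (log2 fold change -1.01, adjusted p = 0.062), though it was without pool A (-2.27) or transcriptome C (-1.26) and under both other scalings. These mRNAs are translated inside the organelle by its own ribosomes, so their place in the gradient bears on mitochondria and not on cytosolic polysomes.

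Along the gradients the mitochondrially encoded mRNAs were most abundant near the top. The fraction levels were scaled by TMM over all morula libraries. Relative to the transcriptome, the median log2 ratio of these mRNAs was 0.62 in F1 and 1.2 in F2 of gradient A. In gradient B it was 1.29 and 0.73. In F8, F9 and F10 it was -1.60, -2.08 and -3.16 in gradient A and -4.62, -3.95 and -2.70 in gradient B. The median over all genes stayed between -1.23 and -0.21 in every fraction. ND2 had 4884 and 13770 CPM in F1 of the gradients A and B and 312 and 549 CPM in F10. POU5F1 ran the other way, from 235 and 438 CPM in F1 to 1465 and 2158 CPM in F8, and peaked in F9 of gradient A (3128 CPM) but in F8 of gradient B, where F10 had 545 CPM.

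**Figure D3:**
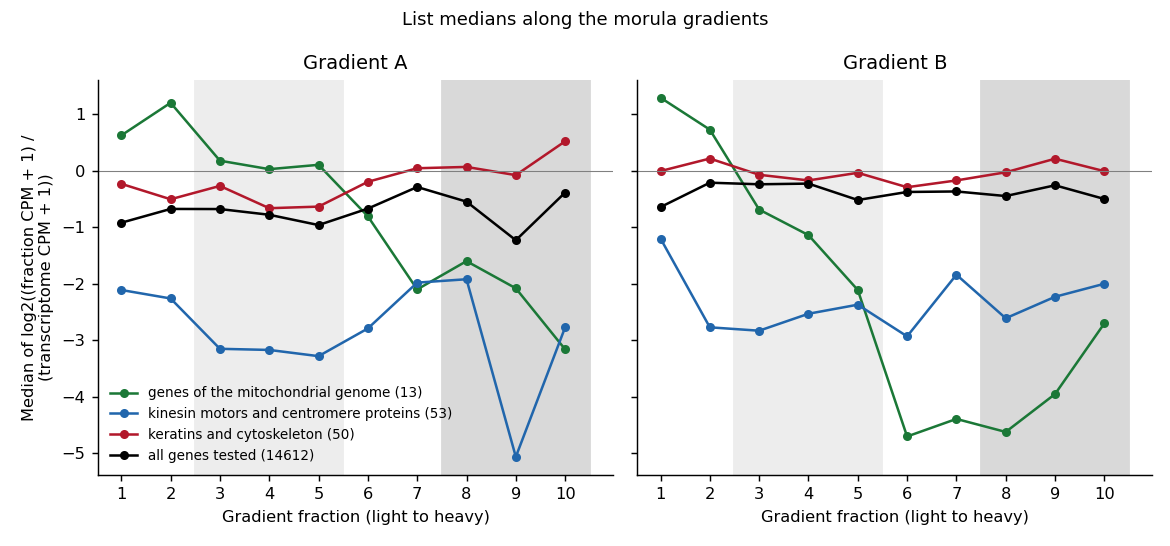
Median over the members of a list of log2((fraction CPM + 1) / (mean transcriptome CPM + 1)) in each of the 10 fractions of morula gradients A and B, from light to heavy, with TMM scaling over all morula libraries. The light band marks the monosome fractions F3 to F5 and the darker band the polysome fractions F8 to F10. Genes of the mitochondrial genome drop from above 0 in F1 to below -1.5 in every polysome fraction of both gradients.

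Components of the protein synthesis machinery differed by class. Of 79 mitochondrial ribosomal protein genes, 35 rose and 16 fell (median log2 fold change 0.78; 1.06 from pool A alone and 0.26 from pool B alone). MRPL4 had 425 and 235 CPM in the pools and 24.2, 17.3 and 16.3 CPM in the transcriptomes (log2 fold change 4.10, SE 0.33, adjusted p = 1.7e-09), and MRPS2 466 and 705 CPM against 25.4 to 45.8 CPM (log2 fold change 4.02). MRPL1 was the reverse, with 19.6 and 23.9 CPM in the pools and 211, 248 and 299 CPM in the transcriptomes (log2 fold change -3.54, SE 0.53). MRPL39 resembled MRPL1 (log2 fold change -2.79). The first pair was well above and the second well below the range of the transcriptomes in both gradients.

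Cytosolic ribosomal protein mRNAs were the clearest case of disagreement between gradients. With both pools, 32 of 77 rose and 4 fell (median log2 fold change 0.71). From pool A alone, 46 rose and 1 fell (median 1.33), and from pool B alone, 10 rose and 23 fell (median -0.53). Their summed level was 168400 CPM in pool A, 62120 CPM in pool B and 58280 to 66200 CPM in the transcriptomes, so pool B lay within the range of the transcriptomes. RPL8, a large subunit protein with one of the larger folds, nevertheless had both pools above all transcriptomes (6766 and 5035 CPM against 1041 to 1280 CPM, log2 fold change 2.34). RPL5, which binds ribosomal RNA of the large subunit, was the reverse in both pools (896 and 378 CPM against 2050 to 2103 CPM, log2 fold change -1.70). Ribosomal protein genes have many near-identical processed copies in the genome, and how reads shared with such copies were divided is uncertain.

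Among 46 translation factors, 12 rose (26.1%, against 25.9% of all genes) and 17 fell (37.0%, against 24.5%). Their median log2 fold change was -0.58, with -0.22 from pool A alone and -0.94 from pool B alone. EEF2, the elongation factor of translocation, had 817 and 650 CPM in the pools and 156, 168 and 122 CPM in the transcriptomes (log2 fold change 2.30, SE 0.30). EIF4EBP1, the repressor of cap binding that mTOR inactivates, had 345 and 156 CPM against 30.5 to 41.1 CPM (log2 fold change 2.83). EIF5B, which joins the ribosomal subunits, had 13.0 and 12.1 CPM in the pools and 227, 233 and 210 CPM in the transcriptomes (log2 fold change -4.16, SE 0.40, adjusted p = 1.6e-08). EIF4A2, an RNA helicase of initiation, had 134 and 93.3 CPM against 839 to 989 CPM (log2 fold change -3.03). The groups did not overlap in any of these 4 genes. EIF4EBP2, which had the largest fold of the list, was not called without pool A or without any one transcriptome.

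Lysosomal and sterol genes were higher in gradient B. Of 69 lysosomal genes, 33 rose and 11 fell (median log2 fold change 1.57; 0.16 from pool A alone, with 18 higher and 18 lower, and 1.70 from pool B alone). CTSD, the main aspartic protease of the lysosome, had 150 and 1064 CPM in the pools and 13.5, 18.2 and 9.16 CPM in the transcriptomes (log2 fold change 5.48, SE 0.65, adjusted p = 3.1e-07). Both pools were above the transcriptomes, pool B by far the more. ARSA, the arylsulfatase that degrades sulfatide, had no count in pool A and 54.4 CPM in pool B, and was called lower without pool B. The cathepsin genes CTSK and CTSS had no count in the pools and were at least 43.8-fold and 33.5-fold lower. Of 24 genes of cholesterol synthesis, 9 rose and 3 fell (median log2 fold change 0.73; -0.73 from pool A alone and 0.67 from pool B alone). MVK, mevalonate kinase, was high in both gradients, with 312 and 164 CPM in the pools and 9.71, 6.26 and 9.16 CPM in the transcriptomes (log2 fold change 4.83, SE 0.35, adjusted p = 8.2e-10). MVD, which decarboxylates mevalonate diphosphate, had 55.4 and 197 CPM against 2.26 to 7.75 CPM (log2 fold change 4.76). The later enzyme MSMO1 fell (13.5 and 29.8 CPM against 185 to 301 CPM, log2 fold change -3.45), as did IDI1 and SC5D, which were at 0.289 and 0.434 CPM in pool A.

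**Figure D4:**
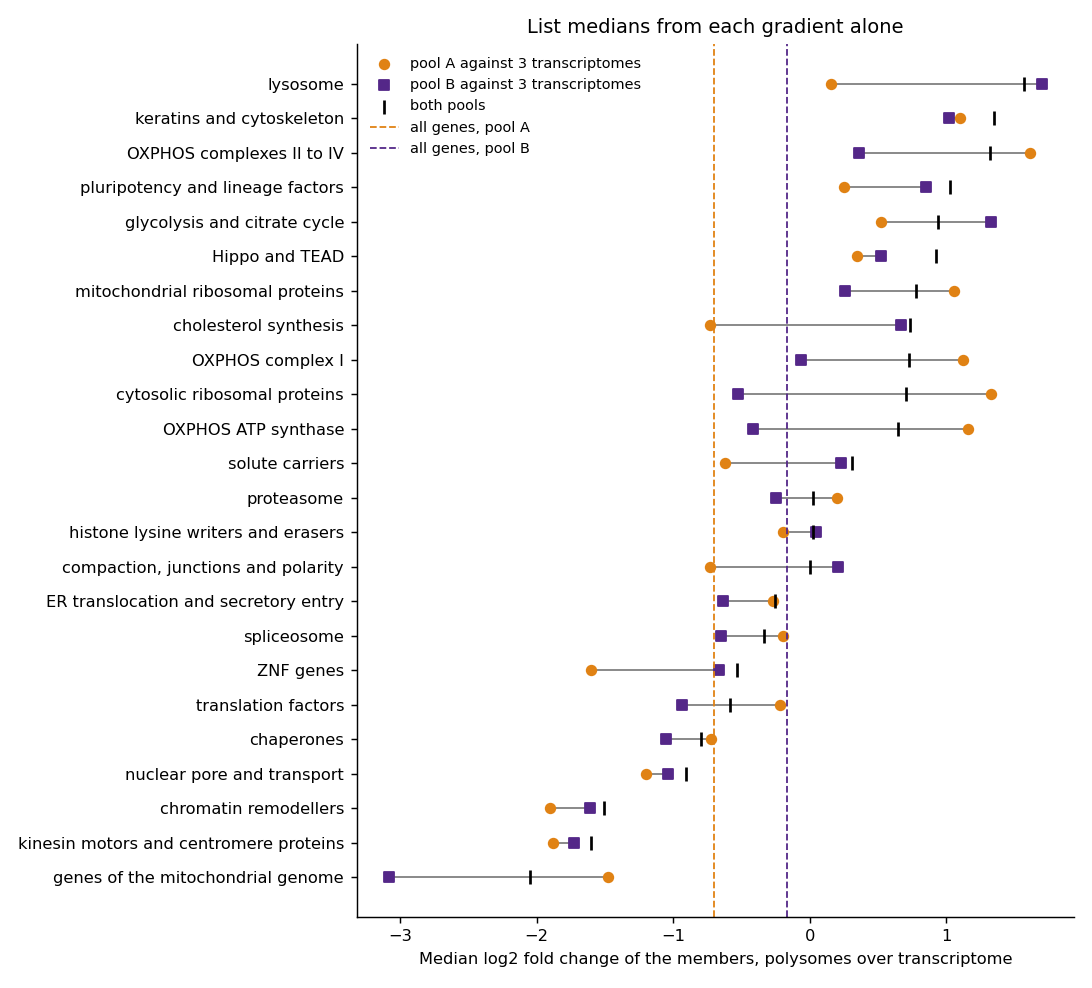
Median log2 fold change of each gene list, polysomes over transcriptome, from pool A alone (orange circles), pool B alone (purple squares) and both pools (black ticks), with dashed lines for all genes tested (-0.70 for pool A and -0.17 for pool B). Cytosolic ribosomal proteins lie at 1.33 from pool A and -0.53 from pool B, and lysosomal genes at 0.16 and 1.70, whereas chromatin remodellers and kinesins lie below -1.5 from either pool.

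Genes of protein quality control were divided or lower. Of 36 proteasome subunits, 11 rose (30.6%, against 25.9% of all genes) and 12 fell (33.3%, against 24.5%). Their median log2 fold change was 0.02, with 0.20 from pool A alone, -0.25 from pool B alone and -0.42 under library totals. PSMD8 of the regulatory particle had 1123 and 740 CPM in the pools and 121 to 145 CPM in the transcriptomes (log2 fold change 2.84, SE 0.25, adjusted p = 5.6e-09), and the ubiquitin receptor ADRM1 differed by 2.65 on the log2 scale. PSMD12 of the same particle had 36.0 and 69.6 CPM against 289 to 359 CPM (log2 fold change -2.63, SE 0.33). Of 46 chaperones, 6 rose and 19 fell (median -0.80; -0.72 and -1.05 from the pools A and B), and the summed level of the list was 20560 and 19210 CPM in the pools and 26160 to 26930 CPM in the transcriptomes. The small heat shock protein HSPB1 rose (3437 and 2361 CPM against 345 to 509 CPM, log2 fold change 2.73). The endoplasmic reticulum chaperones CANX (83.4 and 165 CPM against 536 to 698 CPM) and HSP90B1 (21.9 and 65.7 CPM against 211 to 247 CPM) fell (log2 fold changes -2.33 and -2.37). In these 3 genes neither pool lay within the range of the transcriptomes. Of 37 genes of entry into the secretory pathway, 8 rose (21.6%, against 25.9% of all genes) and 13 fell (35.1%, against 24.5%). Their median was -0.26, with -0.27 and -0.64 from the pools A and B. SEC61A1, the pore of the translocon, rose (log2 fold change 2.52), and its partners SEC62 and SEC63 fell (-2.77 and -2.76).

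Kinesins, centromere proteins and chromatin remodellers were more often lower than higher in the polysomes, in either gradient alone. They were low against the transcriptome in monosome fractions too. In F3 the median log2 ratio (TMM over all morula libraries) was -3.15 in gradient A and -2.83 in gradient B for kinesins and centromere proteins. For remodellers it was -2.12 and -2.01. Of 53 kinesins and centromere proteins, 8 rose and 29 fell (median log2 fold change -1.60; -1.88 from pool A alone and -1.73 from pool B alone). KIF20B, a kinesin of cytokinesis, had 9.35 and 5.64 CPM in the pools and 195, 201 and 236 CPM in the transcriptomes (log2 fold change -4.82, SE 0.47, adjusted p = 2.2e-08). KIFC1, which clusters centrosomes and spindle poles, went the other way, with 117 and 269 CPM in the pools and 6.68 to 11.5 CPM in the transcriptomes (log2 fold change 4.41, SE 0.50). Of 41 chromatin remodellers, 5 rose and 20 fell (median -1.51; -1.90 and -1.61 from the pools A and B), and their summed level was 1796 and 1795 CPM in the pools and 3411 to 3434 CPM in the transcriptomes. HELLS, an SNF2-type ATPase needed for DNA methylation, had 3.08 and 3.05 CPM in the pools and 96.2, 82.9 and 115 CPM in the transcriptomes (log2 fold change -5.00, SE 0.51, adjusted p = 3.7e-08). PBRM1 of the PBAF complex fell by 3.36 on the log2 scale, and SMARCD2 of the SWI/SNF complexes rose (188 and 342 CPM against 17.5 to 28.4 CPM, log2 fold change 3.56). For HELLS and KIF20B both pools were far under every transcriptome.

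Of 49 genes of the nuclear pore and nuclear transport, 6 rose and 21 fell (median log2 fold change -0.90; -1.20 from pool A alone and -1.04 from pool B alone). NUP62 of the central channel had 415 and 340 CPM in the pools and 23.3 to 43.0 CPM in the transcriptomes (log2 fold change 3.60), and the scaffold protein NUP205 9.45 and 3.51 CPM against 64.2 to 81.1 CPM (log2 fold change -3.45). Of 63 spliceosome genes, 16 rose (25.4%, against 25.9% of all genes) and 25 fell (39.7%, against 24.5%). Their median was -0.33, with -0.20 and -0.65 from the pools A and B, where all genes were at -0.70 and -0.17. CWC22, which recruits the exon junction complex, had 0.530 and 0.201 CPM in the pools and 81.3, 75.5 and 64.4 CPM in the transcriptomes (log2 fold change -7.70, SE 1.07, adjusted p = 3.0e-06). SF3A2 of the U2 particle rose (39.9 and 75.6 CPM against 2.26 to 10.45 CPM, log2 fold change 3.26). Of 66 histone lysine writers and erasers, 13 rose (19.7%, against 25.9% of all genes) and 19 fell (28.8%, against 24.5%). Their median was 0.02, with -0.20 and 0.05 from the pools A and B and -0.38 under library totals. KDM5C, an H3K4 demethylase, had 305 and 1297 CPM in the pools and 52.7, 59.9 and 44.3 CPM in the transcriptomes (log2 fold change 3.94), and the deacetylase HDAC7 rose as well (log2 fold change 4.45). JMJD1C, a putative H3K9 demethylase, had 1.64 and 1.29 CPM against 64.2 to 83.7 CPM (log2 fold change -5.65, SE 0.55). In all of these the pools and the transcriptomes did not overlap.

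The widest gene families held members in both directions. Of 262 zinc finger genes named ZNF, 47 rose (17.9%, against 25.9% of all genes) and 76 fell (29.0%, against 24.5%). Their median log2 fold change was -0.53, or -0.34 with groups at 0 placed at their bound. It was -1.60 from pool A alone and -0.67 from pool B alone. Of 304 solute carriers, 94 rose (30.9%, against 25.9% of all genes) and 60 fell (19.7%, against 24.5%). Their median was 0.31, or 0.61 with groups at 0 at their bound, and 0.00 under library totals. Their balance turned between the gradients, with 62 higher and 73 lower from pool A alone (median -0.62) and 102 higher and 44 lower from pool B alone (median 0.23). SLC26A3, an anion exchanger, and SLC25A31, an ATP/ADP carrier of germ cells, had no count in the pools and were at least 72.6-fold and 55.3-fold lower. SLC48A1, a heme transporter, had 42.7 and 20.6 CPM in the pools against 0.108 to 0.358 CPM.

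Within the gradients the polysome pools were also set against monosome pools, the sums of F3 to F5 of the same gradient. By edgeR's quasi-likelihood test 104 of 14873 genes (0.699%) were higher in polysomes and 132 (0.888%) lower, and 2879 had an unadjusted p below 0.05. The counts depended on single pools: 54 and 24 without polysome pool A, 397 lower without polysome pool B, 253 lower without monosome pool A, and 521 and 289 without monosome pool B. Size factors in edgeR, in place of TMM, gave 85 and 172, a share of higher calls of 33.1% in place of 44.1%. POU5F1 was higher in polysomes than in monosomes (log2 fold change 2.24, adjusted p = 0.044). This call was lost with the gradient as a block (2.21), without polysome pool A (1.56) or without monosome pool B (1.85). KRT8 was higher by 3.02 (adjusted p = 0.045), TPI1 by 2.43 (adjusted p = 0.031), UQCRC1 by 2.12 (adjusted p = 0.031) and CYC1 by 1.77 (adjusted p = 0.036), and these 4 calls held with the gradient block. The last 3, picked after their values were seen, were not called without polysome pool A (1.54, 2.16 and 1.85) or without monosome pool B, nor CYC1 and KRT8 without polysome pool B (1.51 and 1.79). KRT8 was also not called without monosome pool A (2.60) or under size factors (2.92) and library totals (2.89).

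Some genes lower in polysomes than in the transcriptome were not lower than in monosomes. PSMC6 and PSMA4, both proteasome subunits, fell against the transcriptome (-2.28 and -2.02 on the log2 scale). They were higher in polysomes than in monosomes by 2.95 (adjusted p = 0.049) and 3.095 (adjusted p = 0.045). These calls were lost with the gradient block (2.93 and 3.05), size factors (2.82 and 2.96), library totals (2.655 and 2.745) and equal weight of fractions (2.546 and 3.201). They were also lost without polysome pool A (2.41 and 2.30) or monosome pool A (2.605 and 2.654), and PSMC6 without monosome pool B (3.40). AURKB, the kinase of the chromosomal passenger complex, had the opposite pattern. It had 422 and 697 CPM in the pools against 120 to 150 CPM in the transcriptomes (log2 fold change 2.00). Against monosomes it was at -2.21 (adjusted p = 0.036), a call lost with the gradient block (-2.03), without polysome pool A (-1.97) or without monosome pool A (-1.23). On the TMM scale of the gradient profiles its mean was 2025 CPM in F3 to F5, 441 CPM in F8 to F10 and 155 CPM in the transcriptomes. These 3 genes were also picked after their values were seen. Other genes above the transcriptome were likewise higher in F3 than in F10 of both gradients. TUBA1C had 14040 and 5883 CPM in F3 of gradients A and B and 3023 and 2116 CPM in F10. For ESRRB these were 2756 and 2873 against 1245 and 1560 CPM. For TEAD4 they were 769 and 513 against 319 and 179 CPM, and for CLDN4 2511 and 1441 against 275 and 595 CPM. KRT8 went the other way (187 and 289 against 1112 and 3280 CPM). Higher in polysomes than in monosomes were 2 of 50 keratins and cytoskeletal genes and 3 of 36 genes of glycolysis and the citrate cycle. So were 3 of 68 lysosomal genes, 4 of 36 proteasome subunits, 2 of 23 genes of complexes II to IV and 2 of 24 of cholesterol synthesis. No member of these lists was lower, and 0.699% of all genes were higher. The lysosomal genes CD63, ATP6V0B and LAMP2 were picked after their values were seen. Their calls were lost with the gradient block (2.25, 1.86 and 2.05) or without polysome pool B (1.205, 0.89 and 1.41). ATP6V0B and LAMP2 also lost theirs under size factors (1.94 and 1.90), library totals (2.08 and 2.06) and without monosome pool B (1.78 and 1.54). So did CD63 and ATP6V0B without monosome pool A (2.53 and 2.33) and LAMP2 without polysome pool A (2.33). LAMP2 was also below the transcriptomes, with 38.5 to 550 CPM in F8 to F10 against 736 to 1109 CPM (TMM over all morula libraries). None of the 13 genes of the mitochondrial genome was called in this comparison (median -2.27). The medians were -0.47 for Hippo and TEAD genes and -0.565 for pluripotency and lineage factors, against 0.00 over all genes. In these lists only 1 member, a pluripotency or lineage factor, was called, and it was higher. A level above the transcriptome therefore does not by itself place an mRNA in polysomes rather than monosomes. Most lists with medians below 0 against the transcriptome had medians above 0 against monosomes. These were 0.32 for kinesins and centromere proteins, 0.51 for chromatin remodellers, 0.80 for chaperones and 0.65 for the spliceosome. Translation factors were at 0.77, the nuclear pore at 0.25 and secretory entry at 0.35, whereas zinc finger genes were at -0.50.

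The morula difference was then tested against the difference at the neighboring stages in the same fit. It was higher than at the 8-cell stage for 1029 genes (7.04%) and lower for 790 (5.41%). At the 8-cell stage itself 27.4% of genes were higher and 30.3% lower in polysomes, and in the blastocyst 19.4% and 19.5%. Library totals in place of TMM gave 815 and 1004 for the difference, and leaving out morula pool B gave 2087 lower. Keratins and cytoskeleton stood out, with 16 of 50 members higher and 1 lower, and so did glycolysis and the citrate cycle, with 11 of 36 higher. Smaller counts were seen for the lysosome (9 of 69 higher, 1 lower), chaperones (7 of 46 higher) and cholesterol synthesis (6 of 24 higher). KRT8 had 62.7 and 151 CPM in the 8-cell pools and 55.1 to 115 CPM in the 8-cell transcriptomes, a log2 fold change of 0.47 there and 4.44 in the morula (difference 3.97, SE 0.73, adjusted p = 9.5e-04).

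PKM changed from 290 and 441 CPM in the pools and 573, 209 and 240 CPM in the transcriptomes at the 8-cell stage to the morula values above (difference of log2 fold changes 3.61, SE 0.67, adjusted p = 9.6e-04). ENO1, enolase, and GAPDH, picked after their values were seen, differed by 3.17 and 2.83. In ENO1 the morula transcriptomes were at 77.2 to 103 CPM and the 8-cell transcriptomes at 609 to 2557 CPM, while the pools were at 490 and 826 CPM in the morula and 887 and 1241 CPM at the 8-cell stage. For ENO1 the stages were thus farther apart in the transcriptomes than in the pools, and transcriptome A was the highest of the 8-cell transcriptomes for ENO1, GAPDH and PKM.

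From morula to blastocyst the difference was higher for 881 genes (6.03%) and lower for 911 (6.23%), with 1707 higher without morula pool B and 578 lower without morula transcriptome C. This test shares the morula libraries with the one against the 8-cell stage. Mitochondrial ribosomal proteins were among the lists with the most members in the higher direction (13 of 79, 1 lower), with genes of secretory entry (11 of 37), translation factors (9 of 46, 2 lower) and the nuclear pore (9 of 49, 3 lower). Of keratins and cytoskeleton, 2 were higher and 9 lower. MRPL39 had 69.6 and 75.9 CPM in the morula pools and 467 to 561 CPM in the morula transcriptomes, and 90.3 and 63.5 CPM against 87.1 to 113 CPM in the blastocyst (difference 2.37, SE 0.57, adjusted p = 0.0096). ACTB had 17498 and 17223 CPM in the morula pools and 19086 and 18528 CPM in the blastocyst pools, while its transcriptomes were at 2639 to 2847 CPM in the morula and 8427 to 13245 CPM in the blastocyst (difference -1.97, SE 0.45, adjusted p = 0.0069). In both genes the pools were close between the stages and the transcriptomes were not. The medians of the 13 mitochondrially encoded genes were -1.93 at the 8-cell stage, -2.05 in the morula and -2.62 in the blastocyst.

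**Figure D5:**
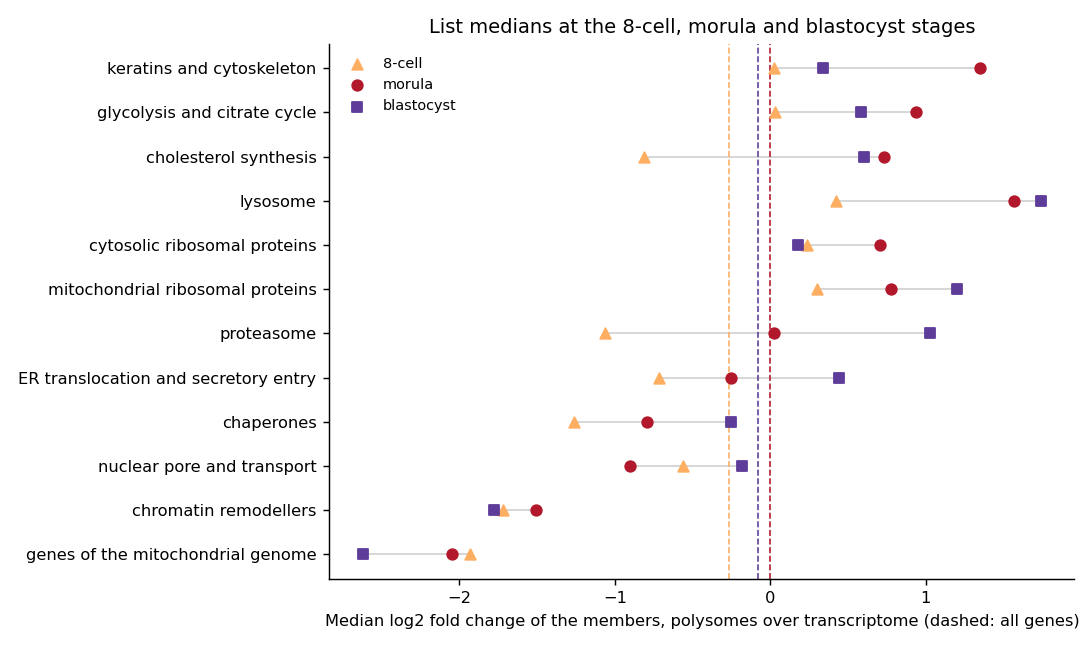
Median log2 fold change, polysomes over transcriptome, of 12 gene lists at the 8-cell (triangles), morula (circles) and blastocyst (squares) stages, with dashed lines for the median over all genes at each stage (-0.27, 0.00 and -0.08). Keratins and cytoskeleton lie at 0.03 at the 8-cell stage, 1.35 in the morula and 0.34 in the blastocyst, and genes of the mitochondrial genome lie below -1.9 at all 3 stages.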

How the data were processed

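The authors deposited a table of estimated counts (expected counts from Salmon, summed to 16706 gene symbols, not normalized; 11.7% of the values are not whole) for 138 libraries made with the SMART-Seq v4 kit, which amplifies polyadenylated RNA, and Nextera XT. The study's methods name the ARS-UCD1.2 annotation of Ensembl and the submitters' processing notes name UMD3.1, so no coordinates are given. Reads carry no molecular identifiers, so counts are not independent molecules.

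For each gradient, the counts of its heavy fractions F8 to F10 were added to a polysome pool and those of F3 to F5 to a monosome pool, and rounded. edgeR 4.0.16 (R 4.3.3) with TMM scaling and its low-count filter was fitted to 30 libraries in 12 groups (12 polysome pools and 18 transcriptomes of 6 stages, 18 residual degrees of freedom), and tested by quasi-likelihood F tests, two-sided, with Benjamini-Hochberg adjustment over all genes. The same was done for 12 polysome and 12 monosome pools (12 residual degrees of freedom). A gene was called at an adjusted p below 0.05 and a fold above 2, and SE is the log2 fold change divided by the root of F. The code was tested on simulated data. The study used edgeR's likelihood ratio test, which is an alternative here. Polysome and monosome pools of the same letter come from the same gradient and deviated together in the morula (r = 0.146 between their differences A minus B), so the fit with the gradient as a replicate block is given where it changes a call.

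The members and gene lists were chosen with earlier results of these data known. Named genes are the 12 largest called folds in each direction with pools beyond all transcriptomes and at least 10 CPM in the higher group, up to 3 called members per list and direction, any member of the pluripotency, Hippo and compaction lists, marker genes, and the 5 largest differences per direction in each stage contrast. Genes outside this rule are said to be. A gene at 0 in every library of a group was given a bound from 3 counts per library. No sequences are shown, since no sequence table or genome of the annotation was used here. Fractions F1, F2, F6 and F7 entered only the profiles along the gradients. A few genes that the naming rule selects are not reported here.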

Additional observations from a re-analysis of the deposited data

Results flagged for a closer look

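The difference between polysomes and transcriptome changed between the morula and its neighboring stages, by the test of the difference itself, for the following genes. Against the 8-cell stage it was higher in the morula for 1029 genes and lower for 790, and from morula to blastocyst it was higher for 881 and lower for 911. The largest fitted differences all involve a group with no or very few counts, so they depend on how zeros are fitted and are not fold sizes.

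Against the 8-cell stage the largest were P3H2 (15.89 on the log2 scale), PARP9 (14.57), FLRT3 (14.02), XCL1 (13.39) and ZBTB7C (13.21) upward and CACNA1C (-15.48), CYP4B1 (-14.67), GRIP2 (-13.01), GDAP1L1 (-12.14) and SPNS3 (-12.00) downward. PARP9, an ADP-ribosyltransferase of the interferon response, had no count in the 8-cell pools and 28.9 to 47.0 CPM in the 8-cell transcriptomes, and 4.96 and 13.9 CPM in the morula pools against 1.72 to 2.43 CPM in the morula transcriptomes. SPNS3 and CACNA1C had 45.4 and 20.8 CPM and 20.7 and 12.6 CPM in the 8-cell pools and none in the morula pools. P3H2, FLRT3 and XCL1 were at or near 0 in morula pool A (0, 0.0482 and 0 CPM), and these 3 differences did not pass the test without morula pool B (8.43, 7.05 and 3.08), nor CACNA1C without morula transcriptome B (-11.25).

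From morula to blastocyst they were ZNF300 (12.23), FABP7 (11.51), FCRLB (10.81), ZNF165 (10.74) and POLI (9.62) upward, all with no count in the morula pools, and ZP4 (-13.38), BCAR4 (-12.75), LRRC15 (-12.13), COX8B (-10.91) and MYF5 (-10.57) downward. ZP4, a zona pellucida protein of the oocyte, and MYF5 had no count in the blastocyst pools against 5.18 to 25.9 CPM and 3.32 to 9.70 CPM in the blastocyst transcriptomes. COX8B rested on morula pool A (4.34 CPM, with 0 in pool B) and LRRC15 on morula pool B (27.7 CPM, with 0 in pool A), and without these pools the differences were -2.63 and -1.17.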

How the results depend on the processing

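The call counts of polysomes against transcriptome stayed within 1.5 times under DESeq2 (3647 higher, 4071 lower), size factors in edgeR (3517, 3870), library totals (3133, 4219), the likelihood ratio test, no filter, equal weight of fractions and each pair of fractions. Size factors and library totals moved the median over all genes by -0.16 and -0.36 on the log2 scale, so directions are relative to TMM. With the morula libraries alone 2320 genes were lower. A replicate block by letter, which pools and transcriptomes share only as a number (r = -0.003 in the morula), left 2024 higher and 1809 lower, 14 and 7 for morula against 8-cell, and 1 and 5 for blastocyst against morula. DESeq2 gave 1576 higher against the 8-cell stage and 1401 lower to the blastocyst. The likelihood ratio test gave 1209 and 1374 lower, and F9 with F10 gave 570 lower to the blastocyst. Library totals gave 46 genes higher in polysomes than monosomes. The gradient as a replicate block gave 77 higher and 133 lower there. Leaving out 1 library gave 3097 to 3633 higher and 3107 to 3769 lower for polysomes against transcriptome, 780 to 1368 and 570 to 2087 against the 8-cell stage, 646 to 1707 and 578 to 1241 to the blastocyst, and 54 to 521 and 24 to 397 against monosomes. Log2 fold changes turned sign without pool A for COX8B (-3.35 to 8.30 over all libraries left out), TEAD2 (-0.83 to 5.13), VIL1 (-5.14 to 6.33) and WWC1 (-0.43 to 3.67), and without pool B for ARSA (-6.43 to 6.46), FGFR1 (-6.46 to 2.88), LATS2 (-1.69 to 1.21), LRRC15 (-4.26 to 7.66), P3H2 (-2.50 to 7.47), TFAP2A (-0.39 to 4.54) and ZP4 (-2.44 to 3.58). The cause was not tested. Of the 24 list medians, 6 moved by more than the spread between pools without pool A, 8 without pool B, 5 under library totals, and 1 each under size factors and without transcriptome B or C. Genes at 0 in 1 pool (2170) limit what the pools resolve.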
